A study of Mus musculus with 4 samples.

Results

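Neutrophils of mouse mammary tumours were examined in 2 droplet libraries, with the cells split by how much granule RNA they held. The cells were selected on measured counts. A barcode counted as a neutrophil when it had 500 or more UMIs (unique molecular identifiers, each 1 captured RNA molecule), 250 or more genes and no more than 10% of UMIs from mitochondrial genes, together with at least 20 UMIs of S100a8 and S100a9, at least 1 UMI of Csf3r, at most 5 of the C1q genes, at most 2 of Cd3d, Cd3e and Cd3g, and at most 2 of Cd79a, Cd79b and Ms4a1. These limits gave 213 neutrophils among 15319 barcodes called as cells. Of these, 20 held at least 5 UMIs of Ltf, Camp and Ngp together and are called granule-rich, and the other 193 are called granule-poor. The values of all these genes chose the cells, so they are given as descriptions and not as findings.

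The cells came from FVB/NJ mice aged 12 weeks. One group carried PyMT, the polyoma middle T oncogene that gives rise to mammary tumours, and the other carried PyMT together with a Jagged1 allele, labelled Jagged1/PyMT. Jagged1 is a Notch ligand. The promoter or cell type that drives either allele is not given in the sources used here. Immune cells were sorted from digested tumours, about 8000 were loaded per library, and the labels list 2 samples per genotype. Both samples of a genotype share 1 deposited matrix with no map from barcodes to samples, so each genotype was 1 library. No test between genotypes was possible, and every interval below covers counting error only, not the difference between mice or between libraries. Intervals on summed UMIs also leave out the spread between cells, so they are narrower than the cells would allow.

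Neutrophils mature in the bone marrow in steps that leave a record in their RNA. Promyelocytes make the azurophil granule proteins such as myeloperoxidase and elastase, myelocytes and metamyelocytes make the specific granule proteins lactotransferrin (Ltf), cathelicidin (Camp) and neutrophilic granule protein (Ngp), and later stages make gelatinase and secretory vesicle proteins. Mature cells have largely stopped making granule RNA, carry the chemokine receptor Cxcr2, and in tissue can turn on cytokine and chemokine genes such as Il1b and Cxcl2. A cell in tumour that still holds specific granule RNA is therefore usually read as younger than one that does not.

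The 3 genes that separate the granule-rich cells lie on chromosome 9. In the GENCODE vM21 annotation of GRCm38, Ltf (ENSMUSG00000032496) spans chr9:111019271-111042767 on the plus strand, Camp (ENSMUSG00000038357) chr9:109847379-109849617 on the minus strand, and Ngp (ENSMUSG00000032484) chr9:110419747-110423012 on the plus strand. Their RefSeq promoters (GRCm38.p6, 250 bases before to 50 after the start) are shown with that of the lactate dehydrogenase gene Ldha, 1 of the glycolysis genes that were higher in granule-poor cells of Jagged1/PyMT. Capitals mark TTGCNNAA on either strand in the first 3, a core of the motif bound by C/EBP factors that drive granule genes, and ACGTG on either strand in Ldha, the core of the hypoxia response element. The Ltf window is chr9:111019042-111019341, that of Camp chr9:109849407-109849706, that of Ngp chr9:110419558-110419857 and that of Ldha chr7:46845554-46845853. Each is written 5′ to 3′ in the direction of its gene.
Ltf: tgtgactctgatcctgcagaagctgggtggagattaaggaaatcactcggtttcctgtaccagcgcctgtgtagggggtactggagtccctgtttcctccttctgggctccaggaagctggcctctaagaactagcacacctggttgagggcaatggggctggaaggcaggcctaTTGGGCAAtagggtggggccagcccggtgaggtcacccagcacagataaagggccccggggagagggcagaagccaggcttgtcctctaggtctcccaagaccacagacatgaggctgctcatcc
Camp: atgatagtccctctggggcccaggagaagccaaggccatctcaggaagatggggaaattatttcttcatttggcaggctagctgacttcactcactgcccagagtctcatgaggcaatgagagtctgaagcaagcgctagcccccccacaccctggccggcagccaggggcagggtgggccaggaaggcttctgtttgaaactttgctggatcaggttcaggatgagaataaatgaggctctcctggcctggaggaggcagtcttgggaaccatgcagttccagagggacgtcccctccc
Ngp: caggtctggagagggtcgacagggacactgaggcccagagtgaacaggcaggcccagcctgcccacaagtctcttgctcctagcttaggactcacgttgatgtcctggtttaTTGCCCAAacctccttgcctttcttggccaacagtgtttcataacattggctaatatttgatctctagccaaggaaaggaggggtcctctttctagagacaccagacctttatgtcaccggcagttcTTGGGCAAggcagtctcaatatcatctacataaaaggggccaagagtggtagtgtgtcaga
Ldha: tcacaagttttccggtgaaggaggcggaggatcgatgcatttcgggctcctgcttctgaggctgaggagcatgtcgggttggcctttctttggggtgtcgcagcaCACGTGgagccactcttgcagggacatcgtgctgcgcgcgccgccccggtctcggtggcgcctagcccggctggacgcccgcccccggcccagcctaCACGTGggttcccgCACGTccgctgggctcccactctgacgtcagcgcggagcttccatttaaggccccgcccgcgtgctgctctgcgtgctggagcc

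Ltf held 1 match to TTGCNNAA, Ngp held 2 and Camp held 0, and 10.8% of 32851 RefSeq promoters of this length held at least 1. Ldha held 5 matches to ACGTG, some of them overlapping because the same letters matched on both strands, and 19.6% of all such promoters held at least 1. Among the other genes of this group that are named below, the promoters of Pgam1 and Fam162a held 1 match to ACGTG each and those of Hilpda and Tpi1 held 0. A match describes the letters of a window and is not evidence of binding.

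The PyMT library held 36012036 UMIs and 7444 called cells, and the Jagged1/PyMT library 55506773 UMIs and 7875 called cells. Both libraries listed the same 737280 barcodes, and 70 barcodes were called in both, none of them a neutrophil in either. Neutrophils had a median of 2568 UMIs and 857 genes in PyMT and of 2934 UMIs and 1038 genes in Jagged1/PyMT. Free RNA, read from barcodes with at most 100 UMIs, held S100a8 at 104 CPM (counts per 1000000 UMIs) in the PyMT library and at 499 CPM in the other, well below its level in the neutrophils. Csf3r, S100a8 and S100a9 stood in these cells by selection, but neutrophil markers that the rule did not use stood there too: 9 such genes summed to at least 10 UMIs in 58 of 59 PyMT cells and in 148 of 154 Jagged1/PyMT cells. Summed markers of NK cells, dendritic cells, epithelial cells and erythroid cells stayed below their free RNA level in both libraries. The epithelial sum left out Ltf and Lcn2, which were on that list but are also granule genes of neutrophils and were present in these cells. The selection capped some of the T cell, B cell and macrophage markers, so the rest are given alone. Macrophage markers other than C1q summed to 644 CPM in neutrophils of PyMT and to 976 CPM in those of Jagged1/PyMT, against 1772 and 7154 CPM in free RNA. The 7 T cell markers that were not capped summed to 0 and 24.5 CPM against 919 and 488 CPM in free RNA, and the 5 B cell markers to 11.5 and 16.8 CPM against 581 and 290 CPM. Eosinophil markers were above free RNA, at 86.2 and 91.8 CPM against 5.30 and 5.35 CPM, with Epx, Prg2, Prg3, Ear6, Il5ra and Ccr3 at 0 in both libraries. In PyMT Ear1 and Ear2 were at 0 too, so the sum there was Siglecf alone. Monocyte markers were also above free RNA, at 1551 and 1394 CPM against 803 and 998 CPM, and so were mast cell and basophil markers in Jagged1/PyMT, at 29.1 against 2.43 CPM with 7 of 8 genes at 0.

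Neutrophils made up a larger share of the called cells in Jagged1/PyMT tumours. In PyMT 59 of 7444 called cells were neutrophils, 0.793%, with an exact binomial 95% interval from 0.604% to 1.02%. The Jagged1/PyMT library had 154 of 7875, 1.96% (1.66% to 2.29%). The share was 2.47-fold higher in Jagged1/PyMT (1.83 to 3.33). Granule-poor cells alone stood at 0.779% and 1.71%, a 2.20-fold difference (1.62 to 2.99). A share of sorted immune cells depends on all other cells in the sort, and how many neutrophils a tumour held was not measured.

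The size of this difference depended on the limits on macrophage and lymphocyte genes. A further 22 barcodes in PyMT and 179 in Jagged1/PyMT met every other limit but exceeded a lineage limit, 17 and 162 of them the C1q limit, and with them the counts were 81 and 333 and the log2 ratio of the shares was 1.96 instead of 1.30. The 179 barcodes had a median of 11017 UMIs, against 2934 in the neutrophils of that library. With 0 UMIs of these genes allowed, 44 PyMT and 72 Jagged1/PyMT cells were left and the log2 ratio was 0.63 (0.09 to 1.17). Free macrophage RNA was higher in the Jagged1/PyMT library, and its part in who passed these limits was not tested. At the S100 limit, 6 PyMT and 8 Jagged1/PyMT members held 20 to 29 S100 UMIs, and 6 and 14 barcodes just outside held 10 to 19. Without the Csf3r requirement 6 and 30 more barcodes would have passed.

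Of the 20 granule-rich cells 19 came from the Jagged1/PyMT library. They numbered 1 of 59 neutrophils in PyMT, 1.69% (0.0429% to 9.09%), and 19 of 154 in Jagged1/PyMT, 12.3% (7.59% to 18.6%). The ratio of the shares was 7.28 with an interval of 0.997 to 53.2, which just includes 1. As a share of all called cells the granule-rich cells stood at 0.0134% and 0.241%, a ratio of 17.96 (2.40 to 134). At a limit of 2 granule UMIs the counts were 2 and 24, and at 10 they were 1 and 16. Just inside the limit, 4 Jagged1/PyMT members held 5 to 11 granule UMIs. Members with 1 to 4 granule UMIs numbered 4 in PyMT and 14 in Jagged1/PyMT, none with more than 3, and 54 and 121 held none.

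Granule-rich cells were also deep, and a fixed number of UMIs is reached more easily in a deep cell. The 19 cells held 5495 to 18523 UMIs with a median of 8898, the PyMT cell held 8384, and granule-poor cells had medians of 2564.5 in PyMT and 2733 in Jagged1/PyMT. After every neutrophil was thinned to 1000 UMIs, leaving out 2 shallower Jagged1/PyMT cells, a granule UMI remained in 1 of 59 PyMT cells and in 22 of 152 Jagged1/PyMT cells (14.5%, 9.30% to 21.1%). Before thinning these cells gave 5 of 59 (8.47%) and 33 of 152 (21.7%). The depth of 1000 was chosen after the values were seen, and the ratio of the shares there was 8.54 (1.18 to 61.9). At the planned depth of 500 UMIs per cell the counts were 2 of 59 (3.39%) and 13 of 154 (8.44%). Their ratio was smaller, at 2.49, with an interval of 0.579 to 10.7 that includes 1. Without any C1q, Cd3 or B cell UMI, 0 of 44 PyMT cells and 8 of 72 Jagged1/PyMT cells were granule-rich. Macrophages, taken as barcodes with 10 or more C1q UMIs, held an Ngp UMI in 0.965% of cells in Jagged1/PyMT at a median of 7852 UMIs, and T cells in 0.190% at 3862 UMIs, against 29 of 154 neutrophils.

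**Figure D1:**
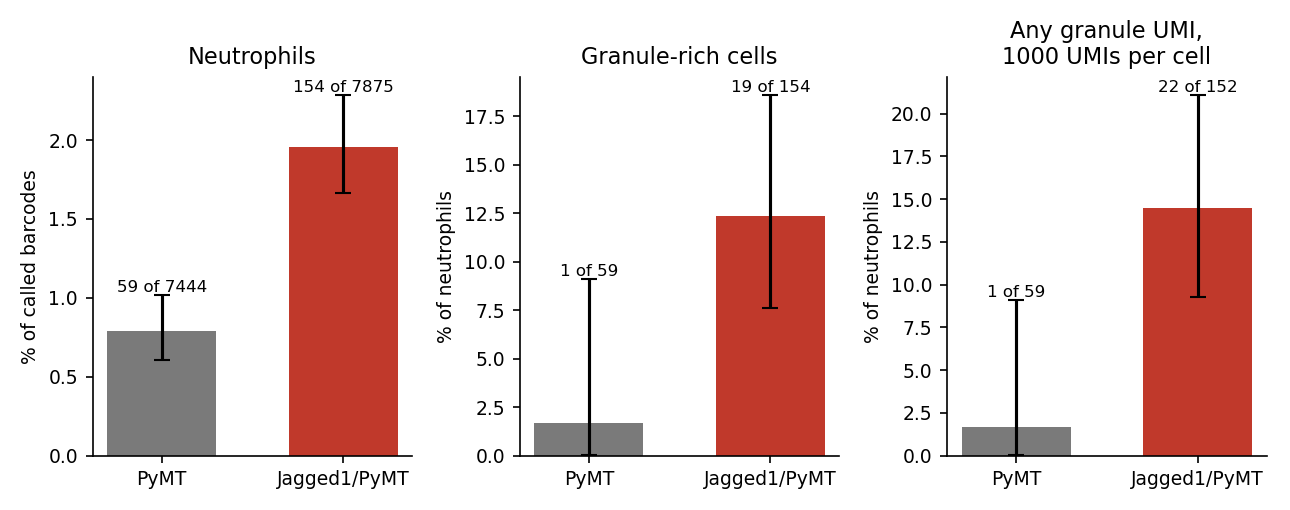
Share of called barcodes that were neutrophils (left), share of neutrophils that were granule-rich (centre) and share of neutrophils with any Ltf, Camp or Ngp UMI after thinning to 1000 UMIs (right), as bars in percent for the PyMT and Jagged1/PyMT libraries. Lines are exact binomial 95% intervals and cover counting error only. All 3 shares were higher in Jagged1/PyMT, at 1.96% against 0.793%, 12.3% against 1.69% and 14.5% against 1.69%. The depth of 1000 was chosen after the values were seen, and at 500 UMIs the right-hand share was 8.44% against 3.39%.

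In single cells Camp was seen only together with Ngp, while Ltf was also seen alone. In Jagged1/PyMT, 10 cells held Ngp, Camp and Ltf, 2 held Ngp and Camp without Ltf, and 17 held Ngp alone, while 0 held Camp without Ngp. All 10 cells with the 3 genes and both cells with Ngp and Camp were granule-rich, as were 7 of the 17 with Ngp alone. Ltf alone was seen in 4 granule-poor cells of Jagged1/PyMT and 3 of PyMT. The 10 cells with the 3 genes had a median of 11796.5 UMIs and the 17 with Ngp alone 7247, and the part of depth in this order was not tested.

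The granule RNA of the group lay mostly in a pair of cells. Jagged1/PyMT cells 1 and 2 in the ranking by granule share held 894 and 1242 granule UMIs among 13328 and 18523, or 671 per 10000 UMIs each. They carried 60.6% of the granule UMIs of all 19 cells, including 89.3% of Ltf, 85.2% of Camp and 49.3% of Ngp. The next 7 cells ran from 234 down to 102 granule UMIs per 10000, all 7 with Ltf and Camp, and the last 10 from 45.6 down to 6.34, with Ltf in 1 of them. The group was thus a range from strongly granule-positive cells to cells with 5 to 34 UMIs, almost all of Ngp.

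Other neutrophil genes differed along this range. Lcn2, the siderophore-binding protein of specific granules, had a median of 130 UMIs per 10000 in the 10 cells with the 3 genes and of 18.2 in the 7 granule-rich cells with Ngp alone. Cd177, a surface protein of specific granules, had 15.3 and 3.80, and S100a6 had 195 and 95.2. The interleukin gene Il1b went the other way, at 8.34 and 50.7, as did the chemokine gene Cxcl2, at 10.9 and 77.5, and the chemerin receptor gene Ccrl2, at 0 and 8.87. Retnlg, a resistin-like gene of neutrophils, was alike in both, at 244 and 237. Over the 19 cells of the 1 library, Spearman's rho between granule share and the other gene's share was 0.76 for Cd177, 0.68 for Lcn2, 0.54 for Mmp8, 0.01 for Retnlg, -0.71 for Il1b, -0.68 for Cxcl2 and -0.74 for Ccrl2. It was 0.56 with total UMIs, so depth moved along the same range. The granule UMIs also chose these cells, and cells of 1 library are not replicates, so the rho values are descriptions. Cells 12 and 14 of the ranking held 156 and 343 UMIs of Cd74, a gene of antigen-presenting cells.

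The single granule-rich PyMT cell had 98 Ngp, 32 Camp and 5 Ltf UMIs among 8384, or 161 granule UMIs per 10000. It also held 93 Lcn2, 319 Retnlg, 12 Mmp8, 9 Cd177, 27 Il1b and 0 Ccrl2 UMIs. On each of these counts it lay within the range of the Jagged1/PyMT granule-rich cells. One of the 2 libraries therefore held a single cell of this kind, and granule-rich cells could not be compared between genotypes.

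**Figure D2:**
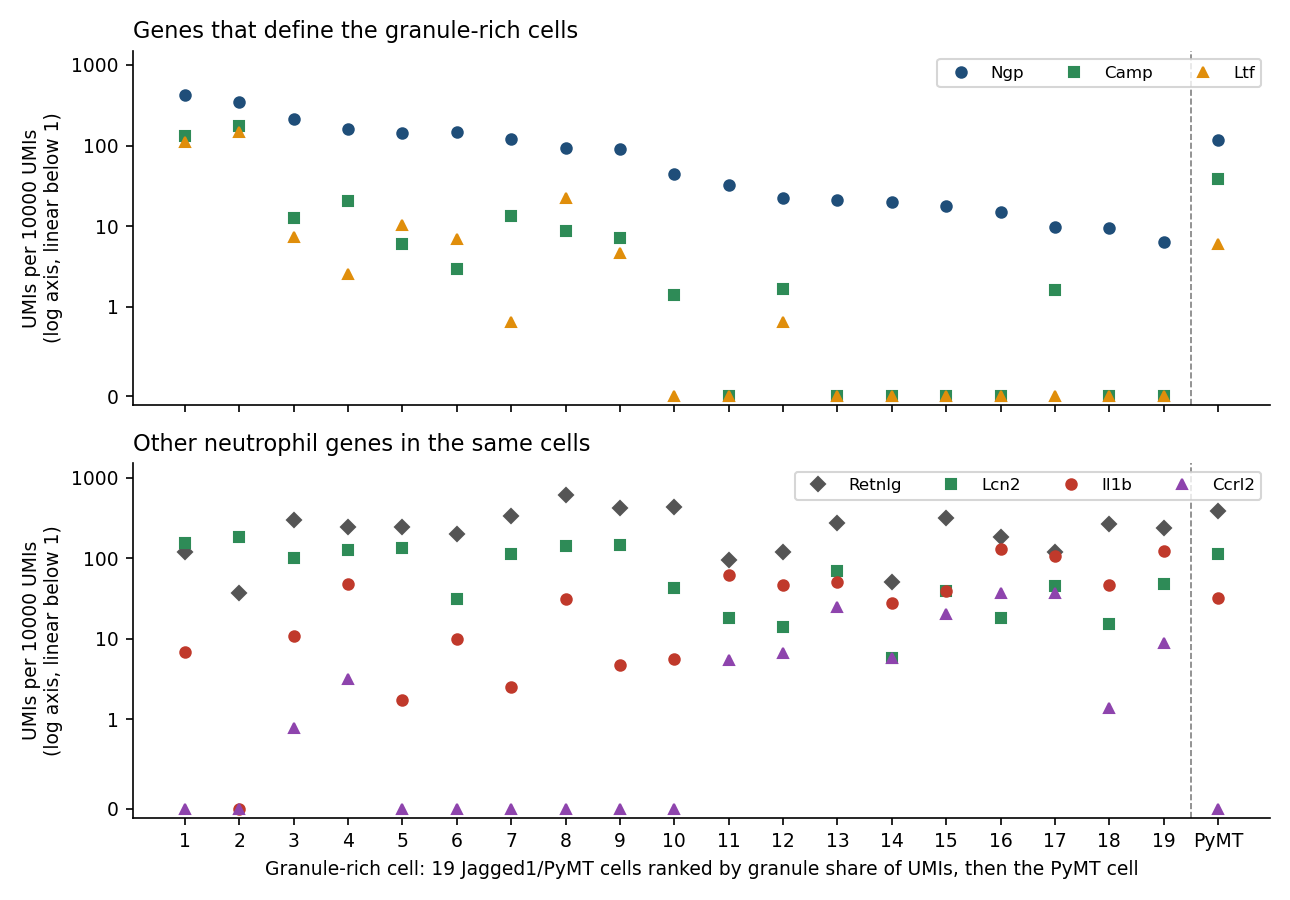
UMIs per 10000 UMIs (log axis, linear below 1) of Ngp, Camp and Ltf (top) and of Retnlg, Lcn2, Il1b and Ccrl2 (bottom) in each granule-rich cell, with the 19 Jagged1/PyMT cells ranked by granule share and the PyMT cell at the right. Ngp was present in all 20 cells, and Ltf in the first 9, in cell 12 and in the PyMT cell; Il1b and Ccrl2 were higher in the cells at the low end of the ranking.

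Within the Jagged1/PyMT library, granule-rich cells were set against granule-poor cells to see what else marked them. Of 1099 genes with at least 50 UMIs that stood above free RNA and were not used by the granule limit, 79 (7.19%) were over 2-fold higher in granule-rich cells and 300 (27.3%) over 2-fold lower, 34.5% in all. The median of all genes stood at -0.47 on the log2 scale. Scaling on the median ratio instead of the total shifts every log2 ratio up by 0.33 and gave 122 higher and 195 lower. Ratios below are of CPM, and counts with median scaling are given where they differ.

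Most specific granule genes that passed the filter were higher in granule-rich cells. With the 3 genes of the limit set aside, 9 of the 16 specific granule genes on the list passed the filter on low values. Of these 7 were over 2-fold higher and 0 lower, beside 7.19% of all genes higher. The median log2 ratio was 2.52 against -0.47 over all genes. A gene could pass the filter through its granule-rich UMIs alone, as Chil3 did with 68 against 8 UMIs. The count is therefore a description and no support for the list. Cd177 stood at 993 CPM in granule-rich and 60.8 CPM in granule-poor cells (log2 ratio 4.03, 3.45 to 4.66), Lcn2 at 8672 and 1179 CPM (2.88, 2.74 to 3.02), and the collagenase gene Mmp8 at 1392 and 243 CPM (2.52, 2.19 to 2.85). Chil3, a chitinase-like protein of granules, was at 352 and 17.4 CPM (4.34). Cybb, the large subunit of the phagocyte oxidase, was at 331 and 45.6 CPM (2.86).

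Further genes that the naming rule picked were Serpinb1a, an inhibitor of the neutrophil serine proteases, at 316 and 19.5 CPM (4.01), Ifitm6, a membrane protein of the interferon-induced family, at 3953 and 332 CPM (3.57), the aldehyde dehydrogenase gene Aldh2 (3.60), the prokineticin gene Prok2 (3.10), the ADP-dependent glucokinase gene Adpgk (3.10) and the microsomal glutathione transferase Mgst1 (3.07). Retnlg was at 22580 and 4744 CPM (2.25, 2.18 to 2.33). BC100530, a stefin A gene on chromosome 16, was at 2.32, but that cluster holds near-identical copies between which reads may be split, so its value is uncertain. The calcium-binding gene S100a6 was at 15320 and 3495 CPM (2.13).

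No protease gene of the azurophil granules of promyelocytes passed the filter on low values. Mpo and Elane had 0 UMIs in every neutrophil of both libraries, and Serpinb1a, an inhibitor rather than a granule protease, was the single member of 9 that passed the filter. The proliferation gene Mki67 had 0 UMIs in granule-rich cells. Only 1 of 20 cell cycle genes passed the filter, at 0.14, so the list was too thinly covered to read cycling from it. Cebpe, the transcription factor of specific granule genes, was seen as 5 UMIs in 2 Jagged1/PyMT granule-rich cells and nowhere else.

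Genes of late maturation were split. Retnlg, the whey acidic protein gene Wfdc21 (6524 and 2155 CPM, 1.60) and the peptidoglycan receptor gene Pglyrp1 (3937 and 1240 CPM, 1.67) were over 2-fold higher in granule-rich cells, and Il1b, the decoy receptor Il1r2 (-1.47) and the chemokine Ccl6 (-1.05) over 2-fold lower. These were 3 higher and 3 lower of 14 measured, beside 7.19% and 27.3% of all genes. The list median over 14 of 15 genes was -0.16, and 0.17 with median scaling, so its sign turned with the scaling. Against granule-poor cells of matched depth Wfdc21 was at 0.99 and Il1r2 at -0.75, and Ccl6 was at -0.72 with median scaling, each then short of 2-fold. Cxcr2 stood at 595 and 819 CPM (-0.46, -0.77 to -0.16), and all 19 granule-rich cells held at least 1 Cxcr2 UMI. Genes of gelatinase granules and secretory vesicles had a median of 0.43, which turned to -1.60 in cells thinned to 500 UMIs. Of 10 measured, 0 were higher and 1 lower past 2-fold, and with median scaling 2 were higher and 0 lower, with a median of 0.76. The gelatinase gene Mmp9 was at 792 and 456 CPM (0.80) and Cd14, the endotoxin co-receptor gene, at -1.30, or -0.97 with median scaling.

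Inflammatory genes were lower in granule-rich cells. Of 16 inflammatory genes 11 passed the filter, and all 11 were over 2-fold lower, beside 27.3% of all genes. Their median was -2.33 (9 of 11 lower and -2.003 with median scaling). Il1b stood at 3405 CPM in granule-rich and 16011 CPM in granule-poor cells (-2.23, -2.35 to -2.12). The interleukin 1 receptor antagonist Il1rn was at 77.6 and 1075 CPM (-3.79), the adhesion molecule Icam1 at 10.3 and 300 CPM (-4.86), the cytokine Tnf at 10.3 and 206 CPM (-4.32), and Tnfaip3, an inhibitor of NF-kB signalling, at 41.4 and 452 CPM (-3.45). Casp4 and Osm, at -1.19 and -1.09, came to -0.86 and -0.76 with median scaling and were then no longer past 2-fold.

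Chemokine genes followed. Among 10 that passed, 0 were higher and 8 lower past 2-fold (7 with median scaling), beside 27.3% of all genes lower. The median was -2.29. Cxcl2, a ligand of Cxcr2, stood at 5474 and 19714 CPM (-1.85), and Ccrl2 at 714 and 6238 CPM (-3.13, -3.38 to -2.88). Cxcl1 had 0 UMIs in granule-rich cells and 134 in granule-poor cells, and at a floor of 3 UMIs was at least 4.23 lower on the log2 scale. Cxcr4, the receptor that holds neutrophils in marrow, was at 31.0 and 189 CPM (-2.61).

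Of 9 measured genes named in studies of tumour neutrophils 7 were lower past 2-fold (6 with median scaling) and 1 higher. Over all genes 27.3% were lower and 7.19% higher. The list median was -1.72. Tnfrsf23 was at 10.3 and 152 CPM (-3.88), Hilpda, a lipid droplet protein induced by hypoxia, at 285 and 1086 CPM (-1.93), and Lgals3, the galectin 3 gene, was the one that was higher (1.12, and 0.37 against cells of matched depth). Of 20 glycolysis and hypoxia genes 9 were over 2-fold lower, beside 27.3% of all genes, and the list median was -0.65 beside -0.47 over all genes. With median scaling 6 were lower and 1 higher, the list median was -0.32 beside -0.14, and Tpi1 (-0.95), Pfkfb3 (-0.82) and Vegfa (-0.93) were short of 2-fold. Of 8 interferon response genes 6 were over 2-fold lower (5 with median scaling, where Irf7 went from -1.18 to -0.85), beside 27.3% of all genes. Isg15 stood at 109 and 784 CPM (-2.85), and the list median was -1.72. This did not hold with no C1q, Cd3 or B cell UMI allowed, where the list median was -0.40 and that of all genes -0.46, nor in cells thinned to 500 UMIs, where the medians were -0.22 and -0.40. The acute-phase gene Saa3 had 1 UMI in granule-rich cells and 679 in granule-poor cells, in 30 of 135 cells.

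Immediate early genes, which tissue digestion can induce, moved with these lists. The 8 that passed were over 2-fold lower in granule-rich cells, beside 27.3% of all genes. Their median was -1.77 (7 of 8 lower and -1.44 with median scaling). They included Junb at 1573 and 7674 CPM (-2.29) and Dusp1 at 957 and 5128 CPM (-2.42). Ier2, at -1.30, came to -0.97 with median scaling and to -0.68 against granule-poor cells of matched depth. Macrophage markers other than C1q summed to 254 CPM in granule-rich and 1279 CPM in granule-poor cells of this library, and 2 of the 19 granule-rich cells held 156 and 343 UMIs of Cd74, the invariant chain of antigen-presenting cells. Without the barcodes that held at least 5 Cd74 UMIs, 17 granule-rich and 118 granule-poor cells remained. Of 953 genes 334 were then called, 35.0% against 34.5% in the main setting. With no C1q, Cd3 or B cell UMI allowed, 177 of 557 were called, 31.8%. The part of macrophage RNA or of tissue digestion in the differences was not tested.

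Depth was matched by keeping only the 20 granule-poor Jagged1/PyMT cells with at least 5000 UMIs. Of 589 genes tested 138 were then called, 23.4% against 34.5%, and the directions of the main genes stayed: Cd177 at 3.08, Lcn2 at 1.84, Retnlg at 1.50, Mmp8 at 1.47, Il1b at -1.87, Cxcl2 at -1.36, Ccrl2 at -2.13 and Icam1 at -4.28. Without the 2 cells richest in granule UMIs, Cd177 was at 3.81, Lcn2 at 2.57, Il1b at -1.99 and Ccrl2 at -2.87.

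**Figure D3:**
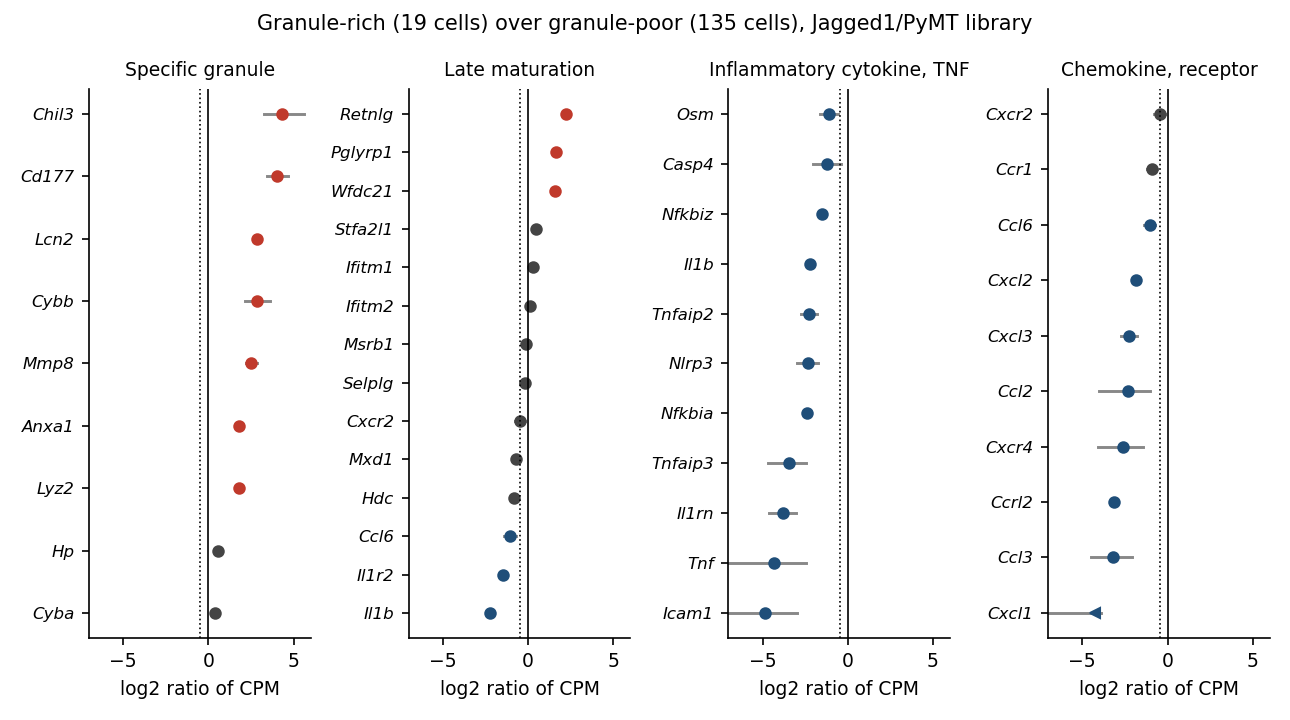
Log2 ratio of CPM, granule-rich over granule-poor cells of the Jagged1/PyMT library, for the measured genes of 4 lists, with 95% counting intervals as grey lines cut at the axis limits, red past 2-fold higher and blue past 2-fold lower. The dotted line is the median of all 1099 genes (-0.47), the triangle marks a gene at 0 UMIs in granule-rich cells, and specific granule genes lie to the right while all 11 inflammatory genes lie to the left.

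Granule-poor cells were not uniform either. As a description added after the values were seen, they were split at 5 UMIs of Retnlg into Retnlg-high and Retnlg-low cells. Retnlg-high cells were 18 of 59 neutrophils in PyMT and 47 of 154 in Jagged1/PyMT, 30.5% in each library, and Retnlg-low cells 40 (67.8%) and 88 (57.1%). Near the limit, 7 PyMT and 9 Jagged1/PyMT cells held 5 to 9 Retnlg UMIs and 14 and 25 held 1 to 4. Retnlg-high cells were deeper, with medians of 3243 and 4038 UMIs against 2273.5 and 2337.

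Retnlg-high cells lay between granule-rich and Retnlg-low cells for many genes. In Jagged1/PyMT, Lcn2 stood at 8672 CPM in granule-rich, 2074 in Retnlg-high and 412 in Retnlg-low cells, and in PyMT at 11093, 1540 and 438 CPM. The neutrophil surface gene Ly6g stood at 652, 315 and 12.1 CPM in Jagged1/PyMT and at 358, 88.9 and 10.2 CPM in PyMT. Ifitm6 followed the same order, at 3953, 616 and 88.8 CPM and at 3817, 548 and 306 CPM. All 10 granule-poor Jagged1/PyMT cells with Ngp were Retnlg-high, and no Retnlg-low cell in either library held an Ngp UMI.

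The order was opposite for inflammatory genes. Ccrl2 stood at 714, 2987 and 9028 CPM in Jagged1/PyMT and at 0, 2932 and 9406 CPM in PyMT. Il1b stood at 3405, 12931 and 18654 CPM in Jagged1/PyMT and at 3220, 17075 and 20881 CPM in PyMT. The chemokine gene Ccl3 was found mostly in Retnlg-low cells, at 36.2, 37.6 and 577 CPM and at 0, 0 and 499 CPM, and so was Siglecf, a lectin used as a marker of tumour neutrophils, at 5.17, 18.8 and 157 CPM and at 0, 44.4 and 122 CPM. Siglecf was also on the eosinophil list. Cxcr2 did not follow the order of the inflammatory genes, at 595, 931 and 722 CPM in Jagged1/PyMT and 596, 1081 and 785 CPM in PyMT.

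**Figure D4:**
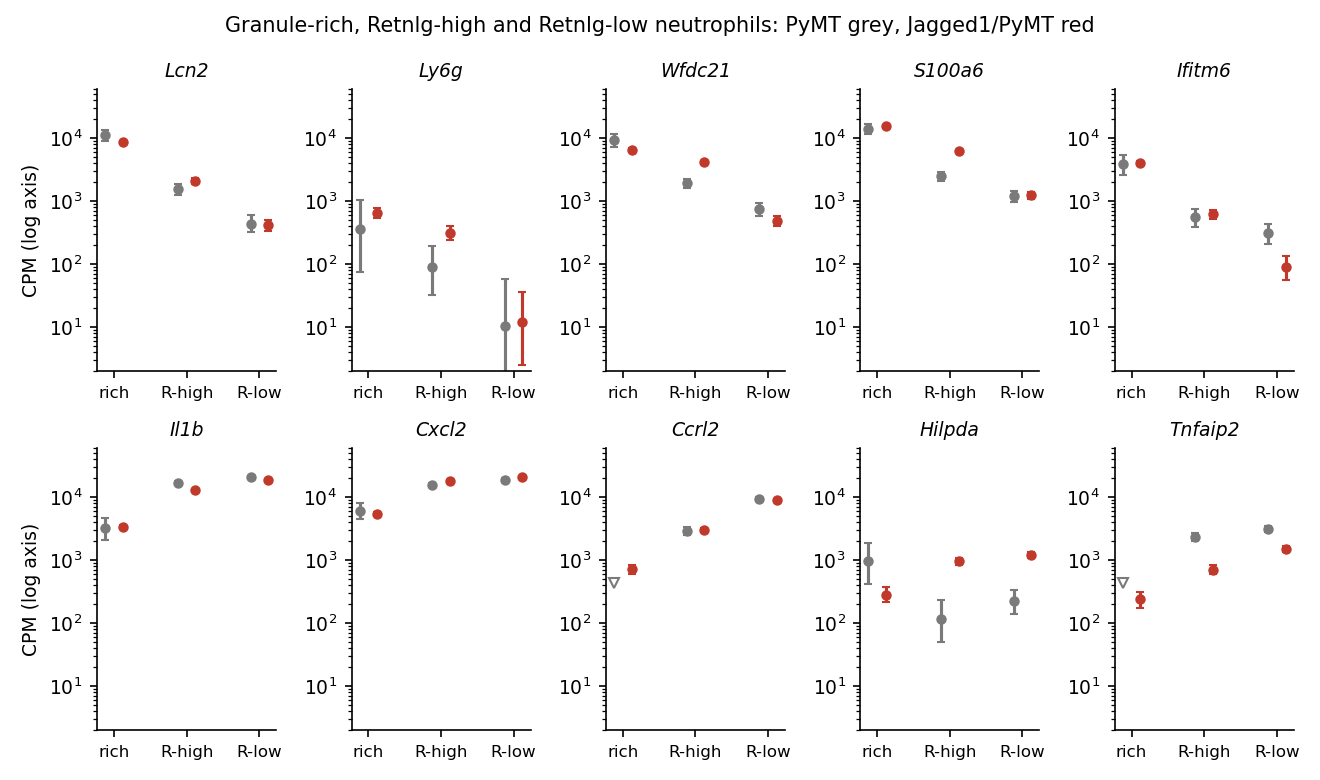
CPM (log axis) of 10 genes in granule-rich (rich), Retnlg-high (R-high) and Retnlg-low (R-low) neutrophils of the PyMT (grey) and Jagged1/PyMT (red) libraries, with exact Poisson 95% intervals; open triangles mark the upper limit for a gene at 0 UMIs, and the PyMT granule-rich point is 1 cell. Lcn2 and Ly6g decrease from left to right in both libraries and Ccrl2 increases, while Hilpda and Tnfaip2 differ between the libraries in both granule-poor classes.

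Across all neutrophils, 82 of 1298 genes (6.32%) were over 2-fold higher in Jagged1/PyMT and 83 (6.39%) over 2-fold lower, 12.7% in all, with a median log2 ratio of -0.14. Averaging the cells' CPM in place of summing UMIs gave 98 higher and 63 lower. Of 11 measured specific granule genes 8 were over 2-fold higher and 0 lower, with a median of 1.34. That count includes Ltf, Camp and Ngp, which defined the granule-rich cells, and such cells were a larger share of the Jagged1/PyMT neutrophils. Without these 3 genes, 5 of 8 were over 2-fold higher, beside 6.32% of all genes, and the median was 1.26. The remaining genes could still pass the filter through the granule-rich cells, so this count is not separate from the share of such cells. The median of the full list was 0.13 in cells thinned to 500 UMIs and 2.25 with no C1q, Cd3 or B cell UMI allowed. Ngp stood at 3803 CPM in Jagged1/PyMT and 569 CPM in PyMT (2.74), Cd177 at 337 and 63.2 CPM (2.41) and Ly6g at 300 and 57.5 CPM (2.38). S100a6 was at 6992 and 2298 CPM (1.60) and Ceacam10, an adhesion molecule of the CEA family, at 138 and 17.2 CPM (2.998). Apart from S100a6, with 400 UMIs in 33 PyMT cells, the PyMT values rested on few UMIs or few cells. Of 99 Ngp UMIs in PyMT 98 lay in the granule-rich cell, as did 9 of 11 Cd177 UMIs. Ly6g had 10 UMIs in 4 PyMT cells and Ceacam10 had 3 UMIs in 2 PyMT cells. In granule-poor cells alone, the specific granule list had 5 measured genes of 16, 0 over 2-fold either way and a median of 0.06, with Lcn2 at 1179 and 887 CPM (0.41).

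Granule-poor neutrophils were therefore compared on their own. Of 1123 genes, 49 (4.36%) were over 2-fold higher in Jagged1/PyMT and 45 (4.01%) over 2-fold lower, 8.37% in all, with a median of -0.09. Macrophage markers other than C1q summed to 670 CPM in granule-poor cells of PyMT and 1279 CPM in those of Jagged1/PyMT. With no C1q, Cd3 or B cell UMI allowed, 68 of 685 genes were called, 9.93%. The part of macrophage RNA in the differences was not tested.

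Genes of glycolysis and hypoxia were higher in granule-poor cells of Jagged1/PyMT. Of 21 genes 20 were measured, and 8 were over 2-fold higher and 0 lower, beside 4.36% and 4.01% of all genes. The list median was 0.93 against -0.09 over all genes. Tpi1 (triosephosphate isomerase) stood at 515 CPM in Jagged1/PyMT and 139 CPM in PyMT (1.89, 1.27 to 2.58), Ldha at 1464 and 543 CPM (1.43, 1.11 to 1.76) and Pgam1 (phosphoglycerate mutase) at 888 and 332 CPM (1.42, 1.01 to 1.85). Egln3, a prolyl hydroxylase that marks HIF for decay, was at 1.33, Pfkl at 1.23, Ero1l at 1.18, Hk2 at 1.11 and Pfkfb3 at 1.06. These smaller differences were less stable: with at least 40 S100a8 and S100a9 UMIs per cell, Egln3 was at 0.93, Ero1l at 0.80, Pfkfb3 at 0.88 and Hk2 at 0.29. With no C1q, Cd3 or B cell UMI allowed the list median was 0.57, with Tpi1 at 1.81, Ldha at 1.15 and Pgam1 at 1.03. Pkm, at 0.22, and Hif1a itself, at 352 and 459 CPM (-0.38, -0.78 to 0.03), did not follow.

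Other hypoxia-linked genes that the rule named pointed the same way. Hilpda stood at 1086 CPM in Jagged1/PyMT and 181 CPM in PyMT (2.58, 2.05 to 3.17), with a UMI in 65 of 135 and 8 of 58 cells. The mitochondrial genes Fam162a (278 and 42.3 CPM, 2.72) and Higd1a (389 and 127 CPM, 1.62), both known as hypoxia-induced, were also higher. With no C1q, Cd3 or B cell UMI allowed, Hilpda was at 2.15 and Fam162a at 1.65. In cells thinned to 1000 UMIs, Hilpda was seen in 33.1% of 133 Jagged1/PyMT and 12.1% of 58 PyMT cells, and Ldha in 60.2% and 39.7%. Both granule-poor classes showed these differences: Hilpda was at 3.01 (2.005 to 4.24) in Retnlg-high and 2.42 (1.79 to 3.11) in Retnlg-low cells, and Ldha at 1.26 and 1.56.

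Free RNA and other cells carried some of the same difference. In free RNA Tpi1 was at 107 CPM in PyMT and at 352 in Jagged1/PyMT, Pgam1 at 151 and 379 CPM, Ldha at 425 and 628 CPM and Hilpda at 98.1 and 120 CPM. In Jagged1/PyMT granule-poor cells Tpi1, at 515 CPM, was thus not far above its free level, while Hilpda, at 1086 CPM, was. Macrophages held Tpi1 at 257 and 608 CPM, T cells at 32.1 and 89.6 CPM and B cells at 38.9 and 66.8 CPM. Ldha was at 546 and 1014 CPM in macrophages and at 500 and 581 CPM in T cells. In B cells Ldha was not higher in Jagged1/PyMT, at 285 and 273 CPM. Hilpda was at 205 and 254 CPM in macrophages, at 32.3 and 64.5 CPM in T cells and at 58.5 and 120 CPM in B cells. Whether the difference in neutrophils exceeds that in these cells was not tested.

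The remaining genes named as higher had mixed roles. Ifi27l2a, an interferon-induced gene, stood at 541 and 54.3 CPM (3.32), but in 23 of 135 and 3 of 58 cells, with free RNA at 329 and 233 CPM. Saa3 stood at 1475 and 489 CPM (1.59) and lost its difference, at 0.06, when no C1q, Cd3 or B cell UMI was allowed. S100a6 stood at 3495 and 1708 CPM (1.03), and at 0.70 with the granule limit at 2 UMIs. The difference was at 1.31 in Retnlg-high and 0.05 in Retnlg-low cells. The stefin A genes BC117090 (1.90) and Stfa2 (1.46) are uncertain for the reason given above.

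Inflammatory genes leaned lower in granule-poor cells of Jagged1/PyMT. Of 14 measured, 3 were lower and 1 higher past 2-fold, beside 4.01% and 4.36% of all genes, and the median was -0.35. Tnfaip2, a gene induced by TNF, stood at 1143 CPM in Jagged1/PyMT and 2825 CPM in PyMT (-1.31, -1.49 to -1.12), Icam1 at 300 and 761 CPM (-1.34) and Il1rap, the accessory chain of the interleukin 1 receptor, at 71.7 and 151 CPM (-1.07). Icam1 was at -0.74 with the granule limit at 2 UMIs, and Il1rap was at 0.0036 in cells thinned to 500 UMIs. Nlrp3, the inflammasome sensor, was at -0.93 and Il1rn at -0.85, short of 2-fold. Il1a was the higher one, at 1.12 in 13 and 7 cells, and turned to -1.35 when no C1q, Cd3 or B cell UMI was allowed. The most abundant cytokine genes hardly differed: Il1b stood at 16011 and 19330 CPM (-0.27), Cxcl2 at 19714 and 17639 CPM (0.16) and Ccrl2 at 6238 and 6767 CPM (-0.12).

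Lower genes outside this list included Acod1, the enzyme that makes itaconate in activated myeloid cells, at 1390 and 3030 CPM (-1.12), the NF-kB inhibitor Nfkbie at 226 and 640 CPM (-1.50), the oxidised lipoprotein receptor Olr1 at 67.3 and 223 CPM (-1.73), the cystine transporter Slc7a11 at 117 and 332 CPM (-1.50), and the TNF receptor Tnfrsf1b at 252 and 586 CPM (-1.22). The pleckstrin gene Plek stood at 1329 and 2928 CPM (-1.14), Marcksl1 at 1088 and 2445 CPM (-1.17), and Hdc, which makes histamine, at 2066 and 4008 CPM (-0.96). Tnfaip2, Plek and Acod1 were lower in both granule-poor classes, at -1.73 and -1.06, at -1.73 and -0.73 and at -1.26 and -1.02 in Retnlg-high and Retnlg-low cells. Icam1 was lower in Retnlg-low cells (-1.49, -1.89 to -1.10), and in Retnlg-high cells its 0.22 had an interval from -0.88 to 1.47.

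**Figure D5:**
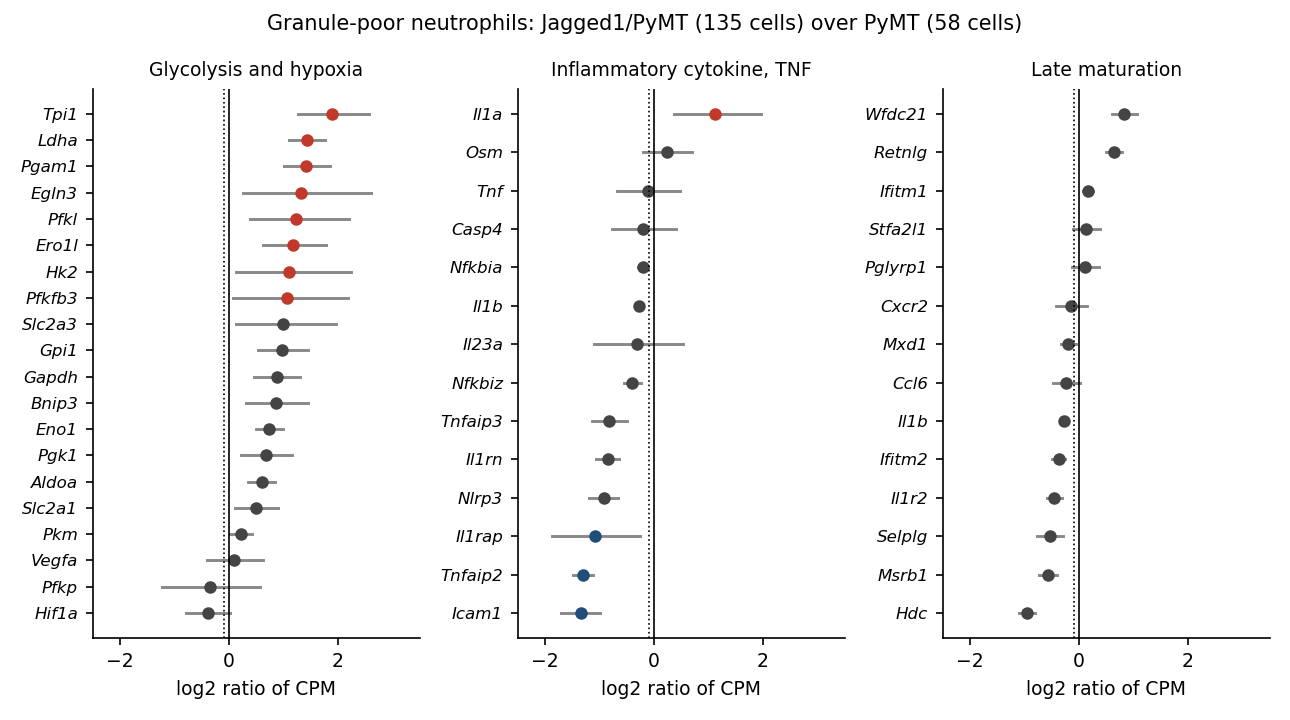
Log2 ratio of CPM, Jagged1/PyMT over PyMT, in granule-poor neutrophils for the measured genes of 3 lists, with 95% counting intervals as grey lines, red past 2-fold higher and blue past 2-fold lower. The dotted line is the median of all 1123 genes (-0.09); 18 of 20 glycolysis and hypoxia genes lie to the right of 0, and 12 of 14 inflammatory genes to the left.

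Few genes of maturation and of tumour neutrophils were past 2-fold. Over all genes in granule-poor cells 8.37% were. Late maturation genes had 0 of 14 past 2-fold and a median of -0.22, with Retnlg at 4744 and 3036 CPM (0.64), Cxcr2 at 819 and 906 CPM (-0.15) and Csf3r, which the selection used, at 1251 and 1690 CPM (-0.43). Tumour-neutrophil genes leaned higher in Jagged1/PyMT, with a median of 0.50 and all 11 measured genes above 0. Only 1 of the 11 was past 2-fold, which was Hilpda. Siglecf (93.4 and 90.6 CPM, interval of the log2 ratio -0.83 to 0.999), Cd274 (84.7 and 72.4 CPM, -0.74 to 1.29) and Vegfa (285 and 266 CPM, -0.40 to 0.63) had intervals that include 0 and are too wide to show equality. Suppressive genes had 2 of 8 past 2-fold, both lower, the arginase gene Arg2 at 298 and 634 CPM (-1.09) and Olr1. Interferon genes had a median of 0.59 with 1 of 8 past 2-fold, Rsad2 at 1.73 in 10 and 2 cells, which turned to -0.085 with no C1q, Cd3 or B cell UMI allowed.

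The Notch pathway was thinly covered. Jag1 had 0 UMIs in the 59 PyMT and 154 Jagged1/PyMT neutrophils, which allows a share of up to 5.08% and 1.95% of cells with a UMI. Over all called cells Jag1 was at 1.96 CPM in PyMT and at 16.8 in Jagged1/PyMT, and in free RNA at 6.19 and 15.1 CPM. Of the 16 pathway genes only Notch2 and the protease gene Adam17 were measured in granule-poor cells, at -0.24 (-0.97 to 0.53) and -0.47 (-1.21 to 0.30).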

How the data were processed

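The deposited matrices hold raw UMI counts of genes by barcodes. The submitters' processing notes name Cell Ranger 3.0.2. The genome build is not given in the sources used here. Each genotype has 1 matrix for its 2 samples, all 737280 barcodes included. Per the labels' protocols, libraries were made with 3′ chemistry. Gates were applied to raw counts. UMIs were summed over the cells of a class and library and divided by their total (CPM), with exact Poisson intervals. Ratios have exact conditional binomial intervals and ratios of shares log-normal ones, all at 95%. Genes with at least 50 UMIs in both classes together, whose CPM exceeded that of free RNA (barcodes with at most 100 UMIs) on at least one side, were compared; called means past 2-fold, with a floor of 3 UMIs for a side at 0. Doublets were left in. Markers and 29 gene lists, and the members, were chosen with earlier results of these data known. Named genes were the 12 higher and 12 lower whose interval bound nearest 0 was farthest out, in at least 10 cells with no cell over 50% of UMIs, plus list members. No p-value was computed, since each genotype was 1 library. The Retnlg limit was set after the values were seen. Filter-passing list members are a description and no support for a list. The ratio step was tested on simulated Poisson counts, which hold no spread between cells. Python 3.11.15, numpy 2.4.6, scipy 1.17.1 and scanpy 1.11.5 were used. Positions are from GENCODE vM21.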

Additional observations from a re-analysis of the deposited data

How the results depend on the processing

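No paired analysis was possible because both samples of a genotype share 1 matrix with no map from barcodes to samples, and for the same reason no replicate could be left out. The log2 ratio of neutrophil shares (1.30) was 0.63 with 0 UMIs of C1q, Cd3 and B cell genes and 1.96 with no lineage limits, the latter chosen after seeing the data; 7 other settings kept it between 1.26 and 1.42. The granule-rich share ratio (log2 2.86) kept its direction under 12 settings, and could not be given with 0 lineage UMIs, where PyMT had no granule-rich cell. One of the 12, leaving out barcodes called in both libraries, could change neither share ratio, and the thinned settings counted cells with at least 1 granule UMI instead. Its interval included 0 in the main setting and in several others, and at 500 UMIs the log2 ratio was 1.32 (-0.79 to 3.42). Called genes between genotypes, 165 in all neutrophils and 94 in granule-poor ones, were 63 and 29 with at least 200 UMIs per gene, 32 and 16 in cells thinned to 500 UMIs, and 258 and 169 with genes under free RNA kept. In that last setting 172 of 258 and 122 of 169 were higher, and with the mean of the cells' CPM 98 of 161 in all neutrophils. With 0 lineage UMIs 27 of 68 calls in granule-poor cells were higher. Calls between granule-rich and granule-poor cells (379) were 177 with 0 lineage UMIs, 132 with at least 200 UMIs, 87 after thinning and 138 against granule-poor cells of at least 5000 UMIs. Signs turned for Rsad2 (-0.53 in all neutrophils, -0.085 in granule-poor) and Il1a (-1.35, granule-poor) with 0 lineage UMIs; after thinning, for Chil3 (-0.38, all neutrophils), Il1rap (0.0036) and Ly6g (-0.22) in granule-poor cells and Ccl2 (0.83), Irf7 (0.24) and Rtp4 (0.022) between granule classes; and for Irf7 (0.029) without barcodes of at least 5 Cd74 UMIs. The causes were not tested. Thinning to 1000, leaving out Cd74 barcodes and matching depth were also chosen after seeing the data. The PyMT library, with 59 neutrophils and 174036 UMIs in them, limits every comparison between genotypes.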

Other observations

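Granule RNA also lay outside the neutrophils. In each library 25 called barcodes that were not neutrophils held at least 5 UMIs of Ltf, Camp and Ngp. In PyMT 24 of these had fewer than 20 S100a8 and S100a9 UMIs, and all 24 held a UMI of the epithelial keratins Krt8 or Krt18. In Jagged1/PyMT 6 had so few, 5 of them with a keratin UMI. Free Ltf was at 48.6 CPM in PyMT and at 7.30 in Jagged1/PyMT, the opposite order to Ngp, at 2.65 and 26.3 CPM. As background, mammary epithelium also makes lactotransferrin.

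Among the barcodes left out by the lineage limits, 17 of 179 in Jagged1/PyMT and 1 of 22 in PyMT were granule-rich, and among those left out for lack of Csf3r 1 of 30 in Jagged1/PyMT held 1233 granule UMIs. The neutrophil with the most granule UMIs had 1242. Ccl2 had the highest log2 ratio between genotypes of the chemokine list in granule-poor cells, 3.43, and rested on 60 UMIs in 5 Jagged1/PyMT cells, 39 of them in 1 cell.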
